A study of Homo sapiens with 12 samples.

Results

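The comparison described here set HK-2 cells given Nnm for 24 h against HK-2 cells given the vehicle for the same time, on 6 of the 12 arrays of the series. HK-2 is an immortalised epithelial line from the proximal tubule of the human kidney, the stretch of the nephron that takes back most of the filtered glucose, amino acids and salts. Nnm is the name in the labels, which give its level as a low dose with no concentration. Each group held 3 arrays, numbered 1 to 3 as biological replicates, and arrays of the same number were treated as a pair. The remaining 6 arrays, 3 of Nnm and 3 of vehicle at 48 h, entered the fit for the estimate of the spread and are not described.

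All groups shared one medium, a DMEM and Ham's F12 mixture with 5 mM glucose, EGF at 10 ng/ml, hydrocortisone at 36 ng/ml, insulin and transferrin at 5 µg/ml each and selenite at 5 ng/ml. Cells were seeded 24 h before treatment and treated at about 90% confluency. HK-2 is a single established line, so the arrays are repeat cultures and not different people. Values are log2 expression levels as deposited, and a difference of 1 log2 unit is a 2-fold change. A level may be compared between arrays for one gene, but not between genes, since probes differ in brightness. RNA of whole cultures was measured, so fewer cells of a kind and less RNA per cell cannot be told apart.

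Of the proximal tubule markers fixed for this check, CDH6 (control mean 12.74 log2), DPP4 (11.31) and SLC3A1 (8.39) were measured well above the filter. LRP2, CUBN, AQP1, SLC34A1, SLC5A2 and SLC22A6, which carry the endocytic receptors, the water channel and the main phosphate, glucose and organic anion transporters of the native tubule, were all below it, at 2.98 log2 or less in control. COL1A1 (8.75), DCN (12.11) and LUM (10.24), genes often used for fibroblasts, were measured and did not pass the test, with differences of -0.33, -0.17 and -0.02 log2 units. The fibroblast markers COL1A2, COL3A1, PDGFRA and PDGFRB were below the filter, as were the leukocyte markers PTPRC and CD14 and the endothelial markers CDH5, KDR and VWF. The endothelial marker PECAM1 was at 4.21 and did not pass the test (a difference of 0.06). Of 5 tested podocyte markers 2 rose, PODXL from a mean of 5.95 to 6.65 and SYNPO from 6.35 to 7.14. Without the pairing 1 of them passed, and in the fit without Nnm 1 none did; the podocyte markers NPHS1 and WT1 were below the filter.

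Across the array, 10907 genes passed the filter on low values and were tested. In the paired limma fit, 4237 of them (38.8%) passed an adjusted p of 0.05, of which 2186 rose (20.0% of those tested) and 2051 fell (18.8%). Without the pairing 2116 passed (19.4%), 1151 up (10.6%) and 965 down (8.85%), and all of these were also called with it. Counts for gene groups below are to be read against these shares. Each is followed in parentheses, first by the count without the pairing and then by the lowest count in any fit that left out 1 of the 12 arrays, with that array named, for example "control 3" for the control array of replicate 3. Where leaving out 1 array raised a count of 2 or more by over 1.5 times, that is also given, and counts of 0 or 1 never exceeded 2 in those fits.

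The pairs were not equal in size. The spread of the Nnm minus control differences over all genes (SD) was 0.691 log2 units in pair 1, 0.373 in pair 2 and 0.705 in pair 3. Among the genes that rose, the median difference was 0.684, 0.37 and 0.779 in pairs 1, 2 and 3, and among those that fell it was -0.692, -0.315 and -0.701. Pair 2 moved in the direction of the other pairs but by less, and 4156 of the 4237 called genes had the same sign in all 3 pairs, a pattern shown by 64.5% of all genes tested. In 3300 called genes all 3 Nnm cultures lay on one side of all 3 controls, which held for 39.8% of all genes tested. Both counts are expected to run high among called genes, which were picked by a test on the same differences. They are therefore not a separate check of the calls. The call counts rested on pairs 1 and 3: without the 4 arrays of replicate 2, 2518 genes rose and 2545 fell, without those of replicate 1 only 3 rose and 1 fell, and without those of replicate 3 none passed, although 3480 and 2814 genes then had an unadjusted p under 0.05. Among single arrays, leaving out control 3 gave the fewest calls, 962 up and 817 down, and Nnm 3 (1025 and 856), control 1 (1180 and 935) and Nnm 1 (1357 and 1181) also moved the counts by more than 1.5 times. On the 4 arrays of replicate 2, 24 and 48 h together, the ACTB signal at the 5′ end lay 1.09 to 1.17 log2 units under that at the 3′ end, against 0.74 to 0.86 on the other arrays. Its part in the smaller differences of pair 2 was not tested.

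**Figure D1:**
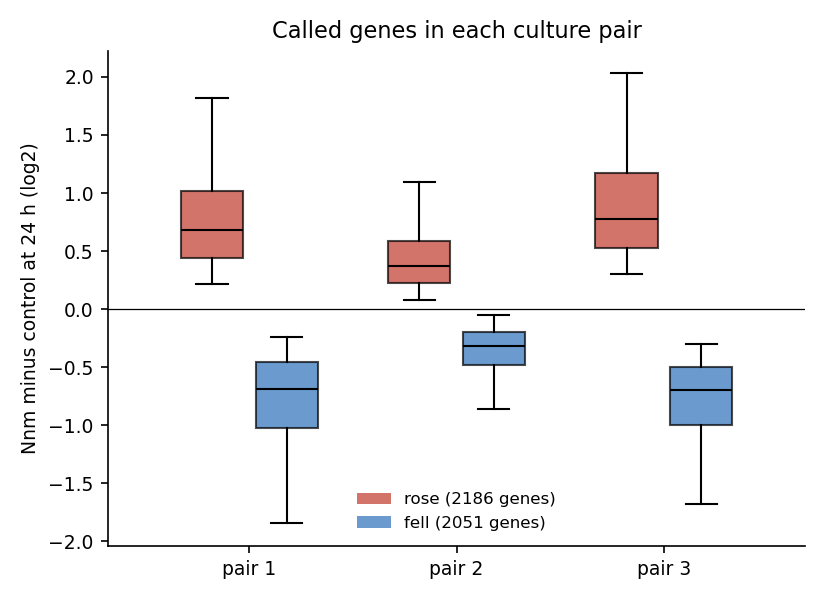
Differences between Nnm and control at 24 h (log2) within each culture pair, for the 2186 genes that rose (red) and the 2051 that fell (blue) in the paired fit. Boxes span the quartiles with the median as a line, and whiskers leave out the extreme genes at either end. The boxes of pair 2 lie nearer to 0, with medians of 0.37 and -0.315.

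Most of the response was made of modest changes in many genes. Of the called genes, 83.5% differed by less than 2-fold, and 419 rises and 278 falls were larger than that. The smallest difference that passed was 0.207 log2 units. Bright genes fell more often than they rose: of the 500 genes with the highest control level, 37 rose and 111 fell. Those 500 were picked by the same control values that enter the difference, which by itself favours falls. Genes were also split into 5 equal bins by their mean over all arrays. In the brightest bin 17.2% rose and 22.6% fell, while in the dimmest 16.6% rose and 9.85% fell. Differences also shrank with brightness, from a median rise of 0.904 log2 units in the dimmest bin to 0.461 in the brightest.

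**Figure D2:**
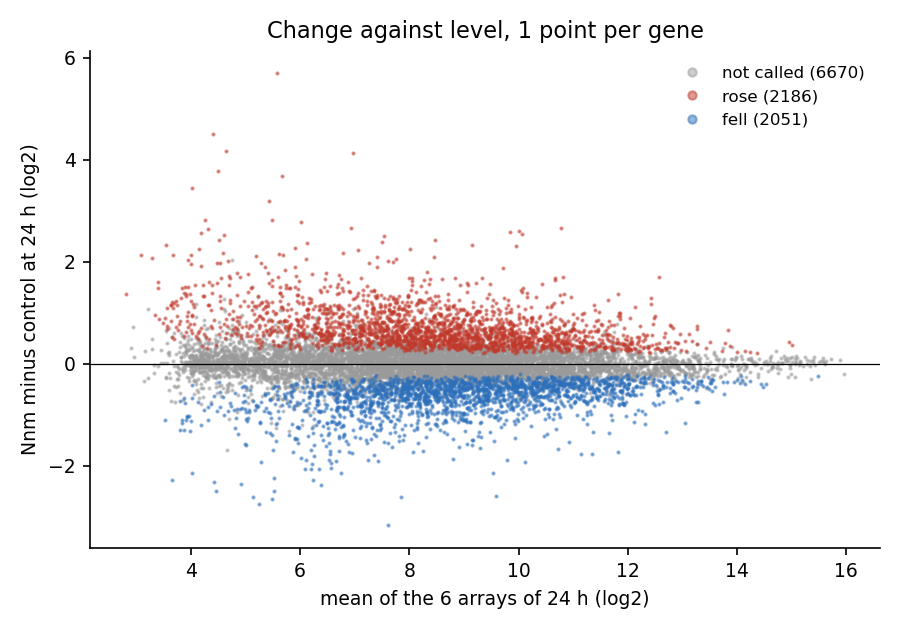
Nnm minus control at 24 h (log2) against the mean of the 6 arrays of 24 h (log2), 1 point per gene, red for genes that rose, blue for genes that fell and grey for genes that did not pass. The large rises sit at low to middle levels, and points at the right edge stay close to 0.

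Levels under 4 log2 lie below the filter's floor. Where all 3 arrays of a group lay there, a gene passed the filter through other arrays, and its array values are given without a size. The rises of smallest p included secreted and surface proteins and enzymes that act on sugars and lipids. CCL28, a chemokine of mucosal epithelia, read 5.30, 4.99 and 5.19 log2 in controls 1, 2 and 3 and 7.04, 6.43 and 6.89 after Nnm. Every Nnm culture was above every control, and the difference was 1.63 ± 0.11 log2 units (SE of the paired limma fit, as after every ± below; adjusted p = 0.000964). PTGER2, a receptor for prostaglandin E2 that raises cyclic AMP, was at 10.52, 10.32 and 9.61 in controls and 11.71, 11.59 and 11.29 with Nnm, again without overlap (1.38 ± 0.11; adjusted p = 0.000997). UST, which sulphates the uronic acid of chondroitin and dermatan chains, went from 3.10, 2.84 and 2.87 to 5.36, 4.42 and 5.16, and LGALS2, a galactose-binding lectin, from 3.41, 2.47 and 2.94 to 5.83, 4.25 and 5.13. In both genes all controls were under the floor and all Nnm cultures above it. At 24 h both thus met the filter only through the arrays where they were high, so the split around the floor adds no support. RASSF10 rose by 1.23 ± 0.11, CABLES2, a cyclin-dependent kinase partner, by 1.13 ± 0.11, and ADCK2, a mitochondrial kinase-like protein, by 1.10 ± 0.10. TXNDC16, a thioredoxin-domain protein of the endoplasmic reticulum, read 9.38, 9.26 and 9.03 in controls and 10.63, 10.19 and 10.30 with Nnm (1.15 ± 0.10). SMPDL3A, a secreted phosphodiesterase related to acid sphingomyelinase, rose by 1.07 ± 0.10 and EXTL2, which acts on the linker of heparan sulphate chains, by 0.77 ± 0.07.

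Among the falls of smallest p was NOCT, a nicotinamide dinucleotide phosphatase with a daily rhythm in many tissues, which read 4.38, 4.52 and 4.57 in controls and 3.43, 3.49 and 3.46 with Nnm. The groups did not overlap, and all 3 Nnm values were under the floor, so at 24 h NOCT met the filter through the controls only. IPO4, an importin that carries ribosomal proteins and histones into the nucleus, fell from 8.69, 8.28 and 8.93 to 7.11, 7.11 and 7.17 (-1.50 ± 0.12; adjusted p = 0.000997). The 3 Nnm cultures lay closer to each other than the controls did. SIK1, a kinase of the salt-inducible family induced by cyclic AMP, went from 10.13, 9.61 and 10.15 to 8.70, 8.28 and 8.65 (-1.42 ± 0.13). UQCC5, an assembly factor of respiratory complex III, fell by 1.01 ± 0.09, INO80C, a subunit of a chromatin remodeller, by 1.25 ± 0.11, and LRRC59, a ribosome-binding protein of the endoplasmic reticulum, by 1.01 ± 0.10. INHBA, the subunit of activin A, read 6.95, 7.49 and 7.66 in controls and 5.46, 5.56 and 4.92 with Nnm (-2.05 ± 0.22; adjusted p = 0.00174), with pair 2 between pairs 1 and 3 in size. ANXA3, a calcium-dependent membrane-binding protein, fell from 10.27, 10.48 and 11.07 to 7.57, 9.09 and 8.77 (-2.13 ± 0.22; adjusted p = 0.00156).

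**Figure D3:**
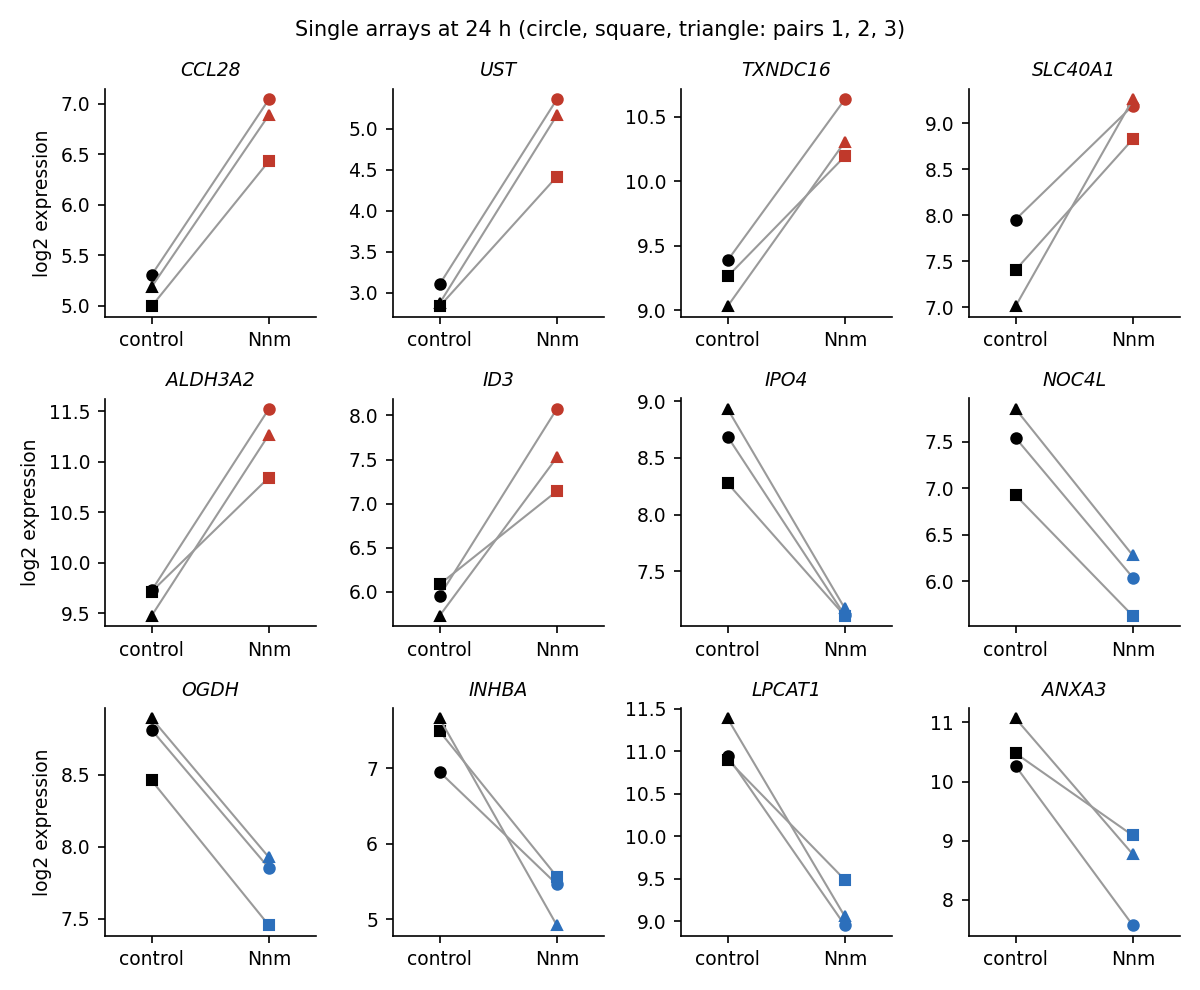
Log2 expression of 12 named genes on the single arrays at 24 h, control in black and Nnm in red (rose) or blue (fell), with lines joining cultures of the same replicate number. Vertical axes differ between panels. In none of the 12 genes do the 3 Nnm values overlap the 3 control values.

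Genes ranked just behind the largest changes covered a wide range of functions. Among the rises were CA12, a membrane carbonic anhydrase (2.61 ± 0.43), HGD, which opens the ring in tyrosine breakdown (2.59 ± 0.28), and G0S2, an inhibitor of triglyceride lipase (2.55 ± 0.46). ARRDC4, an alpha-arrestin induced by glucose, rose from 3.07, 3.60 and 3.35, all under the floor, to 6.18, 4.83 and 6.56. At 24 h it met the filter through the Nnm arrays only. DPYD, the first enzyme of pyrimidine breakdown, rose by 2.37 ± 0.37 and GKAP1 by 2.51 ± 0.39. In HGD the controls were at 8.58, 8.75 and 8.29 and the Nnm cultures at 11.38, 10.56 and 11.46, well apart in each pair. G0S2 was at 8.58, 8.56 and 9.21 in controls and 11.998, 10.021 and 11.971 with Nnm, so the rise in pair 2 was the smallest. Among the falls were ARFGAP2 (-2.04 ± 0.41), which acts in vesicle coats of the Golgi, and LPCAT1, which remodels phosphatidylcholine. LPCAT1 was at 10.94, 10.90 and 11.39 in controls and 8.95, 9.49 and 9.05 with Nnm (-1.91 ± 0.22; adjusted p = 0.00186). The non-coding RNA LINC00973 fell by 1.95 ± 0.25. LINC00472 fell from 6.72, 6.57 and 6.63 to 3.76, 5.67 and 3.79, with 2 of 3 Nnm values under the floor. Among the 500 brightest genes, large changes included falls of UCP2, an uncoupling protein homologue of the mitochondrial inner membrane (-1.73 ± 0.28), TM4SF18 (-1.19 ± 0.18), ARHGAP29 (-1.13 ± 0.20) and TM4SF1 (-1.02 ± 0.12), and rises of CLU, a secreted chaperone (0.76 ± 0.10), TNFSF10, the death ligand TRAIL (0.75 ± 0.10), and AFF1, a scaffold of transcription elongation (0.73 ± 0.11).

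Ribosomes are built in the nucleolus, where RNA polymerase I copies ribosomal DNA and a large set of assembly factors folds, cuts and modifies the RNA while ribosomal proteins join it. The assembly factors had the highest share of falls of all lists described: 41 of 51 tested members fell (34 without the pairing, 27 without control 3) and none rose, with a median difference of -0.62 log2 units beside 0.01 for all genes tested. NOC4L, a factor of the small subunit, went from 7.54, 6.93 and 7.86 to 6.04, 5.63 and 6.28 (-1.46 ± 0.13; adjusted p = 0.00124), with each pair 1.30 to 1.58 log2 units apart. BYSL, which binds the maturing small subunit, fell by 1.15 ± 0.18, MRTO4 and GNL2 of the large subunit by 0.99 ± 0.14 and 0.70 ± 0.10, and DDX21, a nucleolar RNA helicase, by 0.81 ± 0.11. The list's median was -0.69, -0.28 and -0.86 in pairs 1, 2 and 3. Of 32 subunits of RNA polymerases I and III, 9 fell (5, 2 without control 1) and 3 rose (2, 1 without Nnm 3). POLR1A, the largest subunit of RNA polymerase I, fell from 6.58, 6.73 and 7.23 to 5.23, 5.78 and 5.79 (-1.25 ± 0.17).

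Few ribosomal proteins themselves were called. Of 55 tested cytosolic ribosomal protein genes, RPS9 rose by 0.21 ± 0.07 and RPL22L1 and RPL7L1 fell by 0.39 ± 0.12 and 0.29 ± 0.10, and none of the 3 passed without the pairing (adjusted p = 0.0442, 0.0354 and 0.0459 with it); in the fit without Nnm 1 none of them passed. The median over the 55 genes was 0.04. Their median control level was 14.77 log2, against 9.30 for the assembly factors, and median changes of called genes were smallest in the brightest bin, although single bright genes such as TUBA1A changed by more than 1 log2 unit. The part of brightness in their small differences was not tested.

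**Figure D4:**
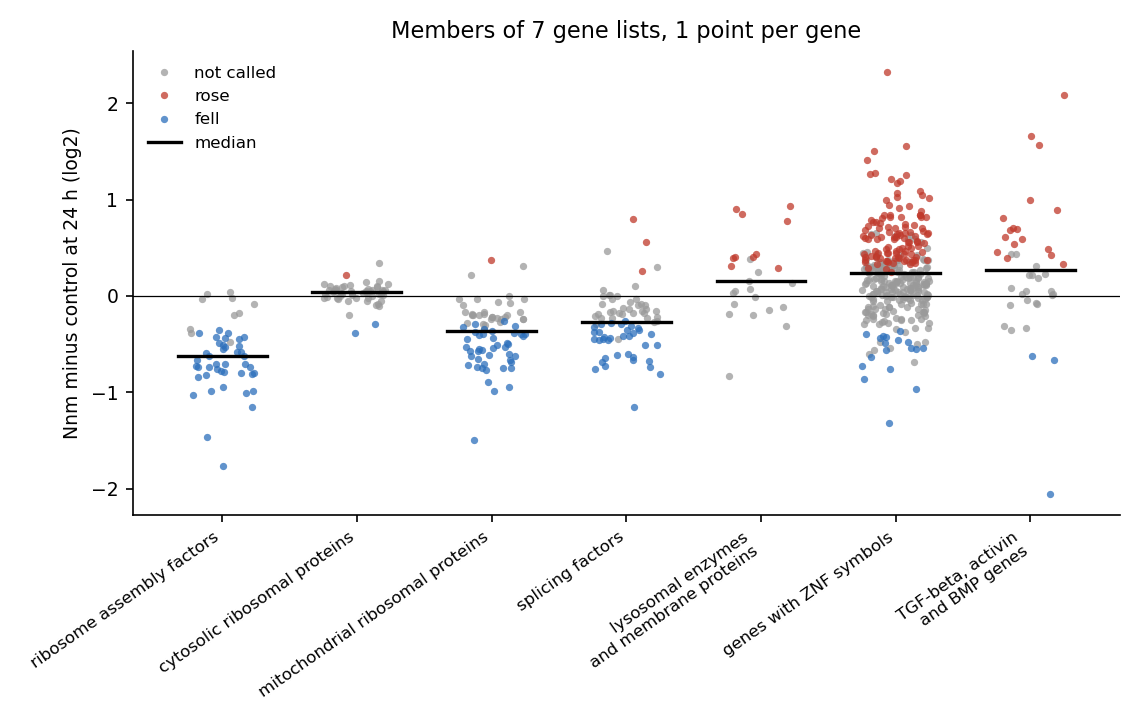
Nnm minus control at 24 h (log2) for the tested members of 7 gene lists, 1 point per gene, coloured by call, with a black bar at the list's median. Ribosome assembly factors lie mostly below 0 with a median of -0.62, cytosolic ribosomal proteins cluster at 0.04, and genes with ZNF symbols have a median of 0.23.

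Sequences upstream of the gene start are shown for some of these genes because the assembly list moved together. Promoters were taken from RefSeq (GRCh38.p14), from 250 bases before to 50 after each start, and 9020 of the 10907 tested genes had an entry. The E-box letters CACGTG, a palindrome read alike on both strands and bound by the MYC and MAX family and by other basic helix-loop-helix factors, stood in 42.2% of 45 promoters of assembly factors, in 10.7% of the promoters of all tested genes and in 7.43% of all 27305 promoters. The share was similar, 38.9%, in 18 promoters of lysosomal enzymes and membrane proteins, a list in which 10 members rose and none fell. Over all tested genes the E-box stood in 13.0% of the promoters of those that fell, 8.97% of those that rose and 10.6% of those not called. The examples are the fallen assembly factors of smallest p that carry it upstream, drawn under further limits. A drawn gene also had to fall in the fit without the pairing, and genes of a certain chromosome were passed over. The examples are printed 5′ to 3′ on the gene's strand, with the E-box in capitals.
UTP4: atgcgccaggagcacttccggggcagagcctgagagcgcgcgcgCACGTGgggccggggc
UTP18: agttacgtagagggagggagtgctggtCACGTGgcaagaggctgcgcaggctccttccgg
NAT10: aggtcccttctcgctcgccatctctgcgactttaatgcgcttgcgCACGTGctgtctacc
These stretches of 60 bases lie at chr16:69132589-69132648, chr17:51260430-51260489 and chr11:34105569-34105628, all on the + strand, with the E-box starting 16, 89 and 15 bases before the start. UTP4 and UTP18, parts of the first small-subunit particle, fell by 0.95 ± 0.15 and 0.39 ± 0.08 log2 units, and NAT10, which acetylates ribosomal RNA, by 0.62 ± 0.13. Within the list, 16 of the 19 assembly factors with an E-box fell, and 20 of the 26 without it, a split that was not tested.

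The letters CCGGAAG (or CTTCCGG on the other strand), the core bound by ETS factors, stood in 26.2% of the promoters of fallen genes, 13.7% of those of risen genes and 20.5% of those of genes not called. Of the 1826 tested genes with the letters 452 fell and 248 rose, and of the 7194 without them 1270 fell and 1559 rose. They stood in 44.4% of the 45 promoters of assembly factors. The UTP4 and UTP18 stretches above hold CTTCCGG, left there in lower case. They also stood in 37.5% of 48 promoters of cytosolic ribosomal proteins, a list with few calls. Both of the following lists held the letters often too, although these lists moved in opposite directions. The letters stood in 41.8% of 67 promoters of mitochondrial ribosomal proteins, a list that fell, and in 43.8% of 290 promoters of genes with ZNF symbols, a list in which many rose, beside 20.2% of all tested genes and 10.7% of all promoters. The examples below are the called members of smallest p with the letters upstream, in capitals, drawn under the same 2 limits as the E-box examples.
MRPL38: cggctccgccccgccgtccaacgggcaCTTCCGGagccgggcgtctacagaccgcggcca
MRPL58: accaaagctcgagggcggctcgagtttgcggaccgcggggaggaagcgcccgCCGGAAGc
ZNF432: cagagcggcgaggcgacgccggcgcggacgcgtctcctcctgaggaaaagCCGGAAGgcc
ZNF436: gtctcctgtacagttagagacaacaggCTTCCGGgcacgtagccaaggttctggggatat
They lie at chr17:75905060-75905119 (- strand), chr17:75012610-75012669 (+), chr19:52048839-52048898 (-) and chr1:23369893-23369952 (-). MRPL38 and MRPL58 fell by 0.67 ± 0.10 and 0.65 ± 0.12 log2 units, while ZNF432 and ZNF436 rose by 0.84 ± 0.09 and 0.66 ± 0.12. Within the lists, 17 of 28 mitochondrial ribosomal protein genes with the letters fell and 19 of 39 without, and 38 of 127 ZNF genes with the letters rose and 58 of 163 without.

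Genes of nuclear transport and splicing also fell more often than they rose. Of 54 nuclear pore proteins and transport receptors, 19 fell (11, 9 without Nnm 3) and 9 rose (4, 2 without control 3). NUP93 and NUP155, of the inner ring of the pore, fell by 0.92 ± 0.13 and 0.89 ± 0.14 and NUP62, of its central channel, by 0.60 ± 0.10. Of 74 splicing factors, 35 fell (13, 9 without Nnm 3) and 3 rose (1, 0 without control 3; 5 without control 2), with a median of -0.27. PRPF3, a protein of the U4/U6 particle, fell from 8.32, 8.53 and 8.61 to 7.619, 7.999 and 8.033 (-0.60 ± 0.08; adjusted p = 0.00243). The core proteins SNRPF and SNRPD1 fell by 0.61 ± 0.10 and 0.68 ± 0.12, SNRPA1 of the U2 particle by 0.51 ± 0.08 and HNRNPAB, which packages new transcripts, by 0.81 ± 0.15.

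**Figure D5:**
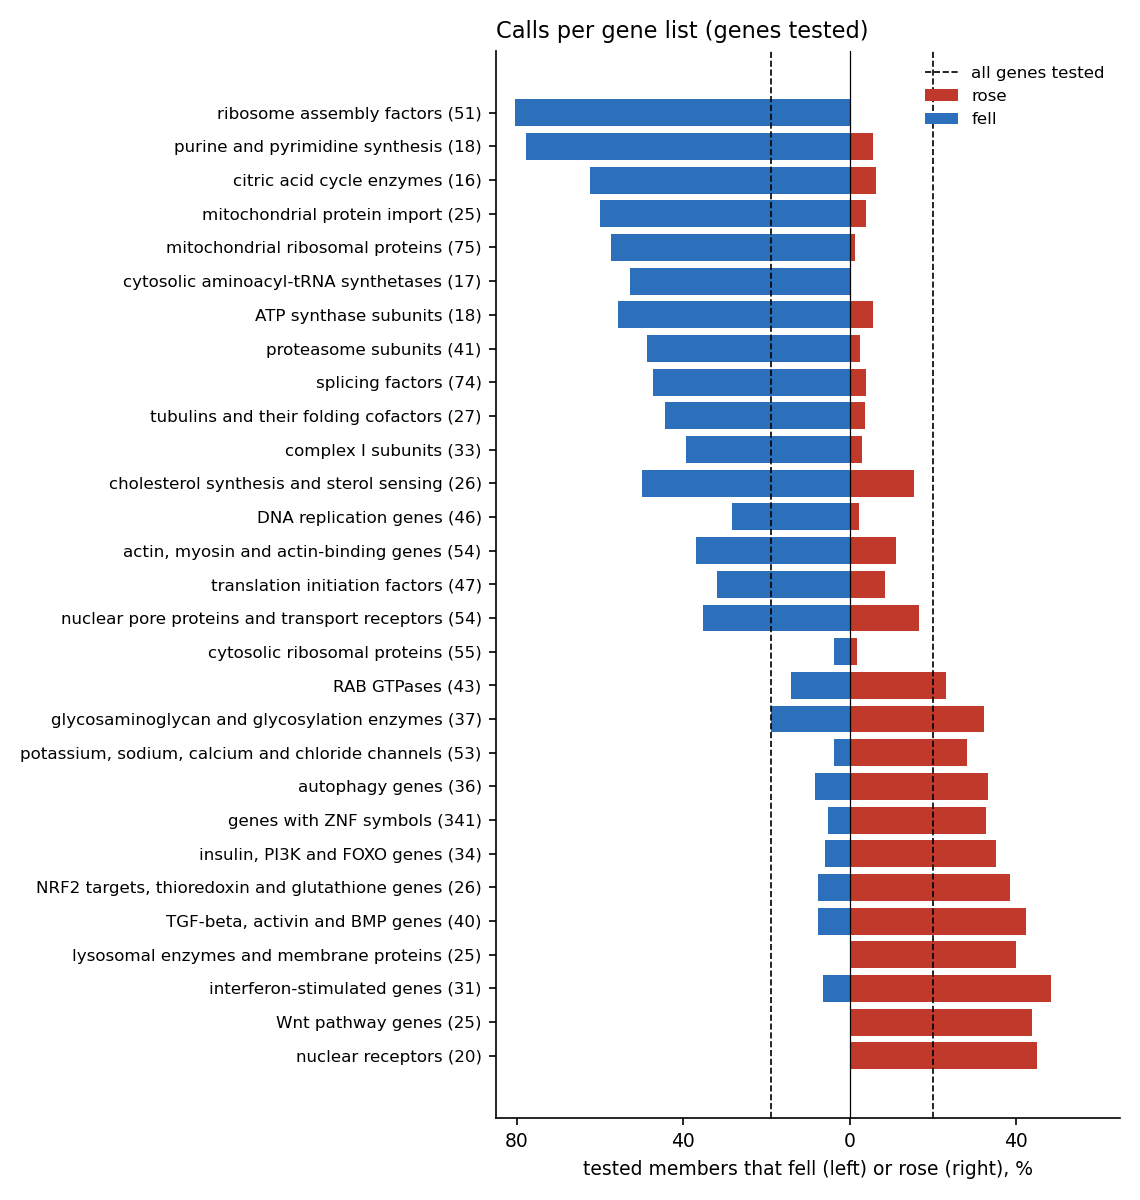
Share of the tested members of 29 gene lists that fell (blue, left) or rose (red, right) in the paired fit, with the number tested in parentheses and dashed lines at the shares of all genes tested (18.8% fell, 20.0% rose). Ribosome assembly factors reach the furthest left, with 41 of 51 members, and cytosolic ribosomal proteins show almost no calls on either side.

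Mitochondria import most of their proteins from the cytosol through the TOM and TIM complexes, build the rest on ribosomes of their own, and burn carbon in the citric acid cycle to feed the respiratory chain. Genes for these steps fell widely. Of 75 mitochondrial ribosomal proteins, 43 fell (30, 23 without Nnm 3) and 1 rose, a call absent without the pairing, and the median was -0.36. MRPL12, of the stalk of the large subunit, read 10.08, 9.46 and 10.22 in controls and 8.36, 8.65 and 8.26 with Nnm (-1.50 ± 0.22; adjusted p = 0.00292). The pairs differed in size there, and no Nnm culture reached a control. MRPL4 (-0.95 ± 0.12), MRPL39 (-0.75 ± 0.12) and MRPS17 (-0.71 ± 0.12) fell too. Of 25 import genes, 15 fell (12, 7 without control 3) and 1 rose (0, 0), with a median of -0.49. TOMM40, the pore of the outer membrane, fell by 1.01 ± 0.15, TIMM22, the channel for carrier proteins, by 0.91 ± 0.12, and TIMM17A, of the presequence channel, by 0.65 ± 0.10. TIMM23B, a near copy of TIMM23 whose probes may share signal with it, fell by 1.25 ± 0.17. Among mitochondrial chaperones and proteases 8 of 15 fell (6, 6 without Nnm 3), among them GRPEL1, the exchange factor of the import motor (-1.23 ± 0.15), TRAP1, an HSP90 of the matrix (-1.04 ± 0.13), HSPA9, the motor's HSP70 (-0.56 ± 0.09), and HSPE1 (-0.49 ± 0.09).

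In the citric acid cycle, 10 of 16 enzymes fell (9, 8 without Nnm 3). OGDH, the oxoglutarate dehydrogenase of the cycle, went from 8.81, 8.46 and 8.89 to 7.85, 7.46 and 7.93, a fall of about 1 log2 unit in each pair (-0.98 ± 0.09; adjusted p = 0.00132). DLST, its partner subunit, fell by 0.93 ± 0.18, DLAT of pyruvate dehydrogenase by 0.72 ± 0.08 and citrate synthase, CS, by 0.47 ± 0.08. PC, pyruvate carboxylase, which refills the cycle and starts glucose synthesis, went the other way, from 4.74, 3.92 and 4.43 to 7.02, 4.88 and 5.70 (1.502 ± 0.277; adjusted p = 0.00529).

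Falls were thinner among complex I subunits and genes for complexes II, III and IV than in the mitochondrial lists above. Falls of complex I and ATP synthase subunits depended more on the pairing than falls in those lists. Of 33 complex I subunits 13 fell (4, 2 without Nnm 3) and 1 rose (0, 0), with NDUFS1 (-0.82 ± 0.12) and NDUFB9 (-0.39 ± 0.09) among the falls. Of 8 complex I assembly factors 4 fell, with the same count without the pairing and as the lowest count when 1 array was left out: NDUFAF3 (-1.32 ± 0.20), NDUFAF5 (-0.63 ± 0.10), NDUFAF4 (-0.54 ± 0.10) and NDUFAF7 (-0.54 ± 0.11). Of 20 genes for complexes II, III and IV, 5 fell (3, 3 without control 1), among them SDHA (-0.78 ± 0.13), UQCRC1 (-0.62 ± 0.10) and CYC1 (-0.74 ± 0.15). Of 18 ATP synthase subunits 10 fell (4, 2 without control 1) and 1 rose (0, 0), with ATP5F1D at -0.99 ± 0.12 and ATP5F1B at -0.60 ± 0.12. Mitochondrial DNA upkeep gave 7 falls (4, 4 without Nnm 3) and 2 rises (1, 1 without Nnm 2) among 18 genes. There TWNK, the replicative helicase, fell by 1.03 ± 0.19 and SSBP1 by 0.71 ± 0.12. The coactivators PPARGC1A and PPRC1, which raise mitochondrial gene expression, fell by 0.99 ± 0.20 and 0.94 ± 0.15, while GABPA, an ETS factor of many mitochondrial promoters, rose by 0.93 ± 0.15. The carriers of the SLC25 family were balanced, with 8 rises (3, 3 without control 3) and 8 falls (1, 2 without Nnm 3) among 36.

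Enzymes that load tRNA with amino acids had falls and no rises. Of 17 cytosolic synthetases 9 fell (5, 5 without Nnm 1) and of 15 mitochondrial ones 7 fell (2, 2 without control 1), and none of either kind rose. VARS1 for valine fell by 1.17 ± 0.19, WARS1 for tryptophan by 0.90 ± 0.12, HARS1 for histidine by 0.88 ± 0.11, FARSA for phenylalanine by 0.74 ± 0.10, and the mitochondrial serine enzyme SARS2 by 1.54 ± 0.20. Among 47 translation initiation factors 15 fell (9, 9 without control 3) and 4 rose (3, 3 without Nnm 1). EIF4G1, the scaffold at the mRNA cap, fell from 11.26, 10.98 and 11.58 to 10.55, 10.47 and 10.60 (-0.73 ± 0.12), with no overlap. EIF6, which also acts in ribosome assembly, fell by 0.72 ± 0.12. EIF2AK4, the kinase GCN2 that senses uncharged tRNA, rose from 7.85, 7.64 and 7.98 to 8.64, 8.09 and 8.65 (0.63 ± 0.10), and EIF1B rose by 0.68 ± 0.11. Without Nnm 2, 8 initiation factors rose.

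Nucleotide synthesis had the next highest share of falls, 77.8%. Of 18 purine and pyrimidine enzymes 14 fell (11, 6 without control 3) and 1 rose (1, 0 without Nnm 3), with a median of -0.55. DHODH, the mitochondrial step of pyrimidine synthesis, fell from 4.41, 4.86 and 5.12 to 3.12, 4.13 and 3.54 (-1.20 ± 0.19), with 2 of 3 Nnm values under the floor. UMPS and CTPS1, which follow it in the pathway, fell by 0.81 ± 0.14 and 0.84 ± 0.14, and NME1, a nucleoside diphosphate kinase, by 1.09 ± 0.21. Counts for DNA replication and mitosis hung on single arrays. Of 46 replication genes 13 fell (4, 0 without Nnm 3), but 20 fell in the fit without Nnm 2. Of 36 mitosis and spindle genes 9 fell (4, 3 without Nnm 3), and 21 without Nnm 2. The mitosis list's median was -0.36, 0.03 and -0.49 in pairs 1, 2 and 3. PRC1, which bundles the midzone spindle, fell by 0.84 ± 0.16, AURKA by 0.62 ± 0.13 and BUB1B by 0.55 ± 0.10. CDT1, a licensing factor that is destroyed once replication starts, was the replication gene that rose (1.13 ± 0.23). Among 20 G1 cyclins and inhibitors 5 fell (3, 3 without Nnm 1) and 3 rose (2, 2 without Nnm 3). CDK4 fell by 0.75 ± 0.13 and CCND2, its partner, by 1.88 ± 0.39, while the inhibitor CDKN1B rose by 0.63 ± 0.13 and CCNG2, a cyclin of resting cells, by 1.11 ± 0.19.

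The proteasome cuts ubiquitin-tagged proteins, and the TRiC ring folds actin and tubulin. Of 41 proteasome genes 20 fell (7, 9 without Nnm 3) and 1 rose (1, 0 without Nnm 3), with a median of -0.25. PSME3, a nuclear activator, fell by 1.07 ± 0.17, PSMA3 of the core ring by 0.77 ± 0.12 and PSMC4 and PSMD6 of the cap by 0.58 ± 0.10 and 0.44 ± 0.08. Of 20 cytosolic heat shock and TRiC genes 7 fell (6, 6 without Nnm 3) and 1 rose (0, 0). CCT5 went from 12.98, 13.20 and 13.27 to 12.46, 12.72 and 12.58 (-0.57 ± 0.10), and CCT2, CCT3 and CCT7 fell by 0.46 ± 0.08, 0.51 ± 0.10 and 0.54 ± 0.09. Tubulins and their folding cofactors gave 12 falls (3, 4 without control 3) and 1 rise (0, 0) among 27. TUBA1A, at 13.51, 13.51 and 13.87 in controls and 12.19, 12.80 and 12.41 with Nnm, fell by 1.16 ± 0.17, TUBB6 by 0.93 ± 0.14 and TUBA1B by 0.45 ± 0.08. Chaperones and sensors of the endoplasmic reticulum moved both ways, with 6 falls (3, 1 without Nnm 3) and 3 rises (3, 2 without Nnm 3; 6 without control 2) among 26. SDF2L1 fell by 1.12 ± 0.18, while ATF6, a sensor of unfolded protein, and SEL1L, of the export complex for misfolded protein, rose by 0.59 ± 0.11 and 0.81 ± 0.17.

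Lysosomal and autophagy genes rose more often than they fell. Of 25 lysosomal enzymes and membrane proteins 10 rose (4, 3 without control 3) and none fell, with a median of 0.15. In pair 2 the median was -0.001, so the list as a whole moved in pairs 1 and 3. MANBA, a mannosidase, rose from 7.49, 7.42 and 6.66 to 8.23, 8.24 and 7.79 (0.90 ± 0.13), SCARB2, the receptor that brings glucocerebrosidase to the lysosome, by 0.93 ± 0.14 and the protease CTSL by 0.77 ± 0.16. Of 18 lysosomal genes with a promoter entry, 7 held the E-box letters and none of those was called. All 5 that rose were among the 11 without it. Of 36 autophagy genes 12 rose (6, 5 without control 1) and 3 fell (2, 2 without Nnm 1). NBR1, a receptor for ubiquitin-tagged cargo, went from 9.72, 9.70 and 9.60 to 11.01, 10.42 and 10.95 (1.12 ± 0.14; adjusted p = 0.00233), ULK2, a starting kinase, rose by 1.24 ± 0.24 and ATG14 by 0.56 ± 0.11. ATG7, the activating enzyme of the conjugation step, fell from 7.51, 7.50 and 7.56 to 6.66, 6.80 and 6.89 (-0.74 ± 0.14), and FNIP2, of the folliculin complex that signals at the lysosome, fell by 1.04 ± 0.12. Of 17 subunits of the vacuolar proton pump 4 fell (2, 1 without Nnm 3) and 2 rose (1, 1 without Nnm 1). ATP6V1D fell by 0.72 ± 0.10. In the fit without Nnm 2, 6 rose.

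Adaptors that choose targets for cullin ubiquitin ligases rose more often than they fell as well. Of 41 KLHL, KBTBD and KCTD genes 11 rose (9, 6 without control 3) and 5 fell (1, 2 without Nnm 3). KLHL14 rose from 8.21, 8.23 and 7.55 to 10.75, 9.61 and 10.60 (2.32 ± 0.31), KCTD6 by 1.07 ± 0.19, KCTD18 by 0.94 ± 0.14, KLHL2 by 0.91 ± 0.17 and KLHL24 by 0.73 ± 0.13. Among 57 F-box and cullin genes the shares were near those of all genes on the rising side, with 9 rises (7, 6 without Nnm 3) and 4 falls (2, 2 without Nnm 3). FBXL17 rose by 1.12 ± 0.16, BTRC by 0.85 ± 0.15 and CUL4B by 0.75 ± 0.12. Of 43 RAB GTPases, which steer vesicles, 10 rose (5, 4 without Nnm 3) and 6 fell (1, 2 without Nnm 3), with RAB3D at 0.89 ± 0.11 and RAB38 at 0.91 ± 0.19. Without Nnm 2, 16 of them rose.

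Zinc finger genes of the large ZNF family, most of them DNA-binding repressors, held the largest number of rises of the lists described. Of 341 tested genes with ZNF symbols 112 rose (64, 58 without Nnm 3) and 18 fell (3, 2 without control 3), with a median of 0.23 and medians of 0.18, 0.17 and 0.30 in pairs 1, 2 and 3. As a share, 32.8% rose and 5.28% fell. The median control level was 6.74 log2, below the 8.43 of all genes tested. ZNF432 was at 7.18, 7.34 and 7.25 in controls and 8.04, 8.05 and 8.21 with Nnm (0.84 ± 0.09; adjusted p = 0.00156), and ZNF318 went from 7.32, 7.15 and 6.84 to 8.65, 8.03 and 8.44 (1.27 ± 0.13; adjusted p = 0.00156). ZNF736 rose by 1.07 ± 0.15 and ZNF32 by 0.56 ± 0.07. Many of these genes lie in clusters of near copies, so probe sets can share signal between members.

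Nuclear receptors, which switch genes on and off with hormones and lipids, gave 9 rises (5, 7 without Nnm 3) and no falls among 20 tested. NR1D2, a repressor of the clock, read 9.02, 8.91 and 8.79 in controls and 9.71, 9.69 and 9.65 with Nnm (0.78 ± 0.09; adjusted p = 0.00201), with nearly the same step in every pair. PPARA, the fatty acid sensor, rose by 0.65 ± 0.11. NR3C1, the glucocorticoid receptor, rose by 0.69 ± 0.12 on its brightest probe set, and 4 of its 5 probe sets were higher with Nnm. Hydrocortisone, a ligand of that receptor, was in the medium of every group. Of 14 glucocorticoid targets 7 rose (7, 5 without Nnm 1) and 1 fell (0, 0), with medians of 0.60, 0.47 and 0.54 in pairs 1, 2 and 3. GLUL, glutamine synthetase, went from 10.97, 10.96 and 10.97 to 12.08, 11.67 and 12.22 (1.03 ± 0.12), and FKBP5, a chaperone of the receptor, from 12.04, 12.11 and 11.56 to 12.54, 12.53 and 12.19 (0.52 ± 0.09). Of 36 histone methyltransferases and acetyltransferases 8 rose (5, 3 without Nnm 3) and 3 fell (1, 1 without Nnm 3), and of 20 demethylases 6 rose (3, 2 without Nnm 1) and 1 fell (1, 0 without Nnm 1). KAT2B, an acetyltransferase, rose by 1.38 ± 0.28 and KMT2C, which marks enhancers, by 0.83 ± 0.15.

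Clock genes moved both ways, 5 up (3, 3 without Nnm 1) and 4 down (3, 3 without Nnm 1) of 18. DBP, an output factor of the clock, rose from 5.61, 4.55 and 4.65 to 6.62, 5.92 and 6.43 (1.39 ± 0.15). CRY1, a core repressor, fell from 9.85, 9.70 and 10.11 to 8.50, 8.81 and 8.96 (-1.13 ± 0.16), and BHLHE40 fell by 0.81 ± 0.14. Of 189 genes with symbols of non-coding RNAs, 43 rose (23, 23 without control 1) and 18 fell (11, 12 without Nnm 3). NR2F1-AS1, at 4.01, 3.94 and 3.90 in controls and 5.94, 5.27 and 5.98 with Nnm, rose by 1.78 ± 0.16, MIR1915HG by 1.54 ± 0.16 and ESAM-AS1 by 1.35 ± 0.18. The controls of these 3 genes lay near the floor, with 2, 1 and 1 of their arrays under it.

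Several receptors of growth and differentiation signals rose. Of 34 insulin, PI3K and FOXO genes 12 rose (5, 4 without Nnm 1) and 2 fell (1, 0 without Nnm 3), with insulin in the medium of every group. INSR rose from 6.22, 6.23 and 5.87 to 7.09, 6.69 and 7.28 (0.92 ± 0.16), IGF1R by 0.79 ± 0.13, IRS1, their shared adaptor, by 0.56 ± 0.10 and FOXO4 by 0.72 ± 0.16. Of 40 TGF-beta, activin and BMP genes 17 rose (9, 7 without control 3) and 3 fell (1, 1 without Nnm 3). TGFBR2, the receptor that binds TGF-beta first, was at 10.62, 10.65 and 10.68 in controls and 11.43, 11.24 and 11.34 with Nnm (0.69 ± 0.08; adjusted p = 0.00186). TGFBR3, a co-receptor, rose by 1.57 ± 0.28. ID2 and ID3, targets of BMP signals that block differentiation factors, rose by 0.81 ± 0.10 and 1.66 ± 0.23, while the ligand subunit INHBA fell, as given above. Of 25 Wnt pathway genes 11 rose (5, 4 without Nnm 3) and none fell. The receptor FZD6 rose by 0.58 ± 0.09, the agonist RSPO3 by 2.40 ± 0.45, and SHISA2, which holds receptors back in the endoplasmic reticulum, by 2.27 ± 0.33.

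In the EGF family, whose ligand EGF was in the medium, 5 of 11 genes rose (3, 3 without Nnm 1) and 3 fell (2, 2 without Nnm 3). ERBB3 rose from 4.92, 4.45 and 4.51 to 7.57, 5.47 and 7.22 (2.13 ± 0.36), LRIG1, which restrains these receptors, by 0.85 ± 0.14 and the sheddase ADAM17 by 0.59 ± 0.12, and the ligand TGFA fell by 0.86 ± 0.14. Of 20 genes for FGF, PDGF, VEGF and HGF factors and receptors 7 rose (5, 4 without Nnm 1) and 4 fell (1, 2 without Nnm 3), with PDGFA at 1.15 ± 0.14, PDGFC at 0.44 ± 0.08 and FGFR3 at 0.73 ± 0.14. Of 40 NF-kB, chemokine and cytokine genes 10 rose (8, 6 without control 3) and 5 fell (4, 3 without Nnm 3). Along with CCL28, the chemokine CXCL16 rose by 1.15 ± 0.15 and IL6ST, the shared receptor of the IL-6 family, by 0.54 ± 0.08. IL32 and ICAM1 fell by 1.51 ± 0.17 and 0.96 ± 0.15. Of 31 interferon-stimulated genes 15 rose (5) and 2 fell (0, 0 without Nnm 1), but in the fit without control 3 1 rose, so the count rested on that array.

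Genes of the actin cytoskeleton fell more often than they rose. Of 54 actin, myosin and actin-binding genes 20 fell (7, 9 without control 1) and 6 rose (5, 3 without Nnm 3), with a median of -0.22. The actinins ACTN1 and ACTN4, which cross-link filaments, went from 12.25, 11.77 and 12.27 to 11.40, 11.22 and 11.26 (-0.80 ± 0.11) and from 11.38, 10.72 and 11.27 to 10.56, 9.93 and 10.23 (-0.88 ± 0.12). Of 8 epithelial keratins 5 fell (2, 4 without Nnm 1) and 2 rose (0, 0), with KRT80 at -1.01 ± 0.11 and KRT20 at -2.06 ± 0.32. Annexins and S100 proteins gave 7 falls (2, 2 without Nnm 3) and 1 rise (0, 0) among 19. Of 30 Notch and Hippo genes 7 rose (2, 4 without Nnm 1) and 5 fell (3, 3 without Nnm 3): CCN1, a target of the Hippo effectors YAP and TAZ, fell by 1.34 ± 0.29, WWTR1, which is TAZ, by 0.79 ± 0.16 and NF2 by 0.84 ± 0.15, and TEAD1, their DNA-binding partner, rose by 0.42 ± 0.07.

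Matrix and junction genes were mixed. Of 36 collagens, laminins and related genes 9 rose (6, 4 without Nnm 3) and 3 fell (1, 1 without Nnm 1), or 5 without the Nnm array of replicate 2 at 48 h. The basement membrane linkers NID1 and NID2 rose by 0.61 ± 0.09 and 1.01 ± 0.15, FBN1 rose by 0.52 ± 0.10, and THBS1, a matrix protein that activates TGF-beta, fell from 8.65, 8.06 and 8.46 to 6.89, 6.88 and 5.66 (-1.91 ± 0.30). The collagen-binding integrin ITGA2 rose by 1.83 ± 0.34. Of 41 tight junction, cadherin and polarity genes 13 rose (4, 7 without Nnm 3) and 6 fell (3, 2 without control 1). OCLN rose by 0.78 ± 0.13 and PATJ, a polarity scaffold, by 0.67 ± 0.11, while CGN, which links junctions to actin, fell from 7.18, 7.10 and 7.21 to 5.75, 6.10 and 5.13 (-1.50 ± 0.20). The guidance ligand SLIT2 and its receptor ROBO1 both rose, by 1.34 ± 0.14 and 0.78 ± 0.11. Of 21 genes better known from synapses 9 rose (8, 6 without Nnm 1) and 3 fell (1, 1 without control 3), with SNAP25 at 0.65 ± 0.11 and NRCAM at 0.56 ± 0.10.

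Membrane transport is the main work of the tubule. In several of its families the number called was near what the shares of all genes tested give, as among the amino acid transporters and the zinc, copper and iron genes below. Of the choline transporter-like genes, SLC44A1 rose from 11.27, 11.02 and 10.78 to 12.16, 11.70 and 11.76 (0.85 ± 0.11) and SLC44A2 by 2.42 ± 0.40. Of 37 organic ion and nucleoside transporters 13 rose (6, 6 without control 1) and 7 fell (5, 5 without Nnm 3). The Golgi carriers for sialic acid and UDP-sugars, SLC35A1 and SLC35D1, rose by 0.82 ± 0.14 and 1.27 ± 0.21. SLC17A5, which exports sialic acid from lysosomes, rose by 1.11 ± 0.16. Of 30 amino acid transporters 8 rose (4, 4 without Nnm 1) and 4 fell (3, 2 without Nnm 1). SLC7A2, for arginine and lysine, rose from 5.77, 5.61 and 6.00 to 7.43, 6.97 and 7.54 (1.52 ± 0.19) and SLC38A2, for small neutral amino acids, by 0.66 ± 0.11, and SLC6A20, for proline, fell by 1.12 ± 0.18. Of 16 sugar transporters 4 rose (4, 4 without Nnm 1) and 2 fell (2, 1 without Nnm 1). SLC2A13 and SLC5A3, both carriers of myo-inositol, rose by 1.31 ± 0.26 and 1.16 ± 0.24, and SLC2A6 fell by 1.24 ± 0.15. In SLC5A3 control 2, at 11.65, lay above Nnm 3, at 11.54.

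Of 42 zinc, copper and iron genes 8 rose (5, 3 without control 1) and 8 fell (3, 3 without Nnm 3), and without Nnm 2, 14 rose. The iron exporter SLC40A1, ferroportin, rose from 7.96, 7.41 and 7.01 to 9.19, 8.83 and 9.26 (1.64 ± 0.21) and TFR2, a transferrin receptor, fell from 7.74, 6.92 and 7.50 to 6.14, 6.45 and 5.96 (-1.20 ± 0.22). SLC30A4, which moves zinc out of the cytosol, rose by 1.61 ± 0.25 and SLC39A4, which brings zinc in, fell by 0.80 ± 0.11. Of 53 ion channel genes 15 rose (9, 10 without Nnm 3) and 2 fell (1, 1 without Nnm 3), or 6 without control 2. The potassium channels KCNK1 and KCNJ16 rose by 1.30 ± 0.20 and 0.56 ± 0.10 and the chloride-proton exchanger CLCN4 by 0.80 ± 0.12. SCN3A, a voltage-gated sodium channel, was a fall (-1.95 ± 0.37). Of 20 ABC genes 5 fell (3, 3 without Nnm 3) and 1 rose (1, 0 without Nnm 1). Of the falls, ABCE1 (-0.68 ± 0.12), a ribosome recycling factor, is not a transporter.

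Metabolic enzymes divided by pathway. Sterol synthesis gave 13 falls (5, 4 without Nnm 3) and 4 rises (2, 3 without Nnm 1) among 26 genes. ACAT2 and NSDHL, of the early and late steps, fell by 1.53 ± 0.25 and 1.13 ± 0.19. INSIG2, which holds back the sterol sensor, and MYLIP, which degrades the LDL receptor, rose by 0.65 ± 0.11 and 0.93 ± 0.19. In fatty acid synthesis 5 rose (2, 2 without Nnm 1) and 5 fell (2, 2 without Nnm 3) of 23, with FASN from 10.32, 9.67 and 10.31 to 9.23, 9.04 and 8.89 (-1.05 ± 0.16) and LPIN1, which makes diacylglycerol, from 9.40, 9.37 and 9.27 to 10.63, 10.02 and 10.44 (1.02 ± 0.12). Of 23 glycolysis enzymes 8 fell (5, 6 without Nnm 1) and 5 rose (3, 2 without Nnm 3), with falls of PGK1 (-0.59 ± 0.12) and PGAM1 (-0.53 ± 0.10), and PDK4, which shuts pyruvate dehydrogenase, rose by 1.18 ± 0.22. Of 26 genes for thioredoxin, glutathione and targets of the oxidant sensor NRF2, 10 rose (7, 5 without Nnm 1) and 2 fell (1, 0 without Nnm 1). NQO1, a quinone reductase, rose by 1.36 ± 0.20 and AKR1C3, a ketosteroid reductase whose close relatives may share its probes, by 0.91 ± 0.17.

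Aldehyde and short-chain dehydrogenases and aldo-keto reductases gave 11 rises (8, 8 without Nnm 1) and 9 falls (4, 4 without Nnm 3) among 35. ALDH3A2, the fatty aldehyde dehydrogenase, went from 9.73, 9.72 and 9.48 to 11.53, 10.85 and 11.27 (1.57 ± 0.16; adjusted p = 0.00156), and ALDH5A1, of GABA breakdown, rose by 1.55 ± 0.17. RDH10, which makes retinal from retinol, rose by 0.99 ± 0.14, and DHRS11 fell by 2.27 ± 0.35. Of 37 glycosaminoglycan and glycosylation enzymes 12 rose (9, 9 without Nnm 1) and 7 fell (4, 5 without Nnm 3). FUT8, which adds the core fucose of N-glycans, rose from 8.12, 8.36 and 8.23 to 9.40, 9.16 and 9.58 (1.14 ± 0.15), and HS6ST1, a heparan sulphotransferase, by 1.03 ± 0.14. Of 28 sphingolipid and phospholipid enzymes 6 rose (1, 2 without Nnm 1) and 5 fell (5, 2 without Nnm 1). SPHK1, which makes sphingosine 1-phosphate, rose by 2.18 ± 0.40 and UGCG, which makes glucosylceramide, fell by 0.98 ± 0.16. Of 23 peroxisome genes 6 fell (2, 1 without Nnm 1) and 4 rose (2, 2 without control 3). GNPAT, which starts plasmalogen synthesis, and PHYH, of phytanic acid breakdown, rose by 0.59 ± 0.08 and 1.02 ± 0.18.

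Few markers of nephron segments could be tested. Of 31 proximal tubule markers listed, 11 passed the filter and 3 of those rose (2, 3): the brush border peptidase DPP4, at 11.18, 11.68 and 11.07 in controls and 11.93, 12.41 and 11.89 with Nnm (0.77 ± 0.12), the transcription factor HNF4G (0.78 ± 0.14), and the scaffold PDZK1 (0.69 ± 0.13), whose call was absent without the pairing. None fell. Of 6 tested distal and collecting duct markers 3 rose (2, 3) and 1 fell (0, 0). TFCP2L1, a transcription factor of the distal nephron, went from 5.41, 6.18 and 5.28 to 7.09, 7.36 and 7.44 (1.67 ± 0.17; adjusted p = 0.00156) and SCNN1A, a subunit of the epithelial sodium channel, from 8.91, 8.91 and 8.70 to 9.61, 9.55 and 9.60 (0.75 ± 0.15). SLC12A1, SLC12A3, CALB1 and AQP2, which define distal segments, were at 4.05 log2 or less in control, and SLC12A1, the one that passed the filter, differed by -0.03. Because a marker under the filter in both groups had no chance to be called, these counts describe the tested members only.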

How the data were processed

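RNA of HK-2 cultures was measured on 12 Affymetrix arrays, 3 in each of 4 groups. The deposited values are log2 expression per probe set, made by the authors with GCRMA per the submitters' processing notes; its version and the arrays normalised together are not given in the sources used here. The log base was read from the range of values. Of 54675 probe sets, 62 controls were left out, and genes were named from probe sets with 1 symbol (41091), while 1801 had several and 11721 were not listed. Symbols of 41037 matched RefSeq. Probe sets that exceeded 4 log2 on at least 3 arrays were kept, and a gene was tested where it had any. Where a gene kept several, the brightest of them by mean over the 12 arrays stood for it.

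limma 3.58.1 (R 4.3.3) was fitted to all 12 arrays with group and replicate number as terms, and p-values were adjusted by the Benjamini-Hochberg method over 10907 genes at 0.05. The labels number biological replicates without naming the source of each culture. The p-values therefore measure only the spread left among these cultures once group and replicate number are fitted, estimated over all 12 arrays. The pairing was taken from the replicate numbers in the labels. As a check, same-numbered arrays of 24 h deviated together (r of 0.340 to 0.382 over genes, different numbers -0.280 to -0.053). Deviations were taken from group means, which makes r between different numbers negative when same-numbered arrays agree, so those values are not separate support. No array dropped out of the main fit, and the number of arrays limits precision.

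Genes were named by a rule: the rises and falls of smallest p, those ranked next after the largest, the largest among the 500 brightest, and up to 5 members of smallest p in each list. UTP4, UTP18, NAT10, MRPL58 and ZNF436 were taken for their promoter letters after their values were seen, and CDH6, SLC3A1 and SLC12A1 as markers. Members and lists were chosen with earlier results of these data known. Alternatives changed the block, arrays, filter, probe set rule, scaling, weights and variance model.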

Additional observations from a re-analysis of the deposited data

Results flagged for a closer look

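Probe sets with several gene symbols or none stayed out of the comparison of genes. Of 2846 such probe sets above the filter, 671 (23.6%) passed an adjusted p of 0.05 in the same paired limma fit, of which 259 were higher and 412 lower with Nnm at 24 h. The largest rise was 2.51 log2 units and the largest fall -2.62. They are listed because a signal appeared in data that the comparison did not use.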

How the results depend on the processing

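Without the replicate block, 1151 genes rose and 965 fell, all of them also called with the pairing. The main fit used 1 replicate term for both times. With the block set within each time, 1749 genes rose and 1579 fell. Falls then numbered 22 in place of 35 among splicing factors and 4 in place of 13 among complex I subunits, but 39 in place of 41 among ribosome assembly factors. Rises of interferon-stimulated genes numbered 9 in place of 15. With the 24 h arrays alone the counts were 665 and 469 with the block and 470 and 367 without it. A minimum change of 1.5-fold left 1174 rises and 977 falls. Leaving out 1 array at a time gave 962 to 2405 rises and 817 to 2327 falls, and leaving out all arrays of a replicate number gave 0 to 2518 and 0 to 2545. No result reversed. The median of all genes was 0.011 log2 units, 0.017 after quantile scaling and -0.009 after median centring.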
